A study of Mus musculus with 12 samples.

Results

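The enzymes described here make serine and glycine, load carbon units onto folate, or make asparagine. They are the products of 10 genes, chosen by name from the 35976 gene symbols of the count table: Phgdh, Psat1, Psph, Shmt1, Shmt2, Mthfd1, Mthfd2, Mthfd1l, Aldh1l2 and Asns. The choice was made with earlier results of these data known. All 10 passed the filter on low counts that left 15334 genes for testing, Aldh1l2 only through its level in BN1. RNA with poly(A) tails was sequenced from CD45.2+ cells sorted from C57BL/6 mouse bone marrow, in 12 libraries that form 4 groups of 3. The reference group is CD45.2(+) marrow with no fusion named (WT). The others are CD45.2(+) leukemias: those called BN1 carry BRD9-NUTM1, those called MA9 carry MLL-AF9, and ME stands for MLL-ENL. BRD9-NUTM1 joins a bromodomain protein to the testis protein NUTM1, and the MLL fusions join the start of the histone methyltransferase MLL to a partner protein of the transcription machinery. The labels give no age, no vector or promoter for the fusions, and do not tell whether libraries within a group are from different mice. The p-values therefore reflect only the spread among these samples, which may be technical.

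Cells build serine from a glycolysis intermediate in 3 steps, by Phgdh (oxidation), Psat1 (transamination) and Psph (removal of phosphate). Serine hydroxymethyltransferase, Shmt1 in the cytosol and Shmt2 in mitochondria, turns serine into glycine and passes a carbon unit to tetrahydrofolate. In mitochondria Mthfd2 and Mthfd1l carry that unit on to formate, which leaves for the cytosol, where the trifunctional Mthfd1 reloads it onto folate for purine and thymidylate synthesis. Aldh1l2 oxidizes the mitochondrial unit to carbon dioxide and makes NADPH. Asns makes asparagine from aspartate and glutamine, and leukemic blasts with little of it are known to depend on asparagine from outside the cell, which is the basis of asparaginase treatment. Several of these genes, Asns, Psat1, Phgdh and Mthfd2 among them, are known targets of Atf4, the transcription factor of the amino acid response.

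Asns is shown by sequence because it had the largest difference between leukemias, and Shmt2 and Psat1 because they differed in the same direction. The promoter windows, from 250 bases before to 50 bases after the RefSeq start site in GRCm38.p6, were searched on both strands for TGATGNAA, the core shared by C/EBP-ATF response elements, and for the E-box CACGTG. The motifs do not overlap each other. Windows were found for 9 of the 10 genes. Among them only the window of Asns held TGATGNAA, which 3.97% of 32851 mouse promoter windows hold, and none held CACGTG, which 7.15% hold. Capitals mark the match, 23 to 16 bases before the start site of Asns.
Asns, chr6:7693214-7693243, minus strand: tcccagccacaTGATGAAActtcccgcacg
The 100 bases before the start site of Shmt2 (43.0% G and C) and before the outer of the RefSeq start sites of Psat1 (51.0%) hold no match, so they have no capitals.
Shmt2, chr10:127522445-127522544, minus strand: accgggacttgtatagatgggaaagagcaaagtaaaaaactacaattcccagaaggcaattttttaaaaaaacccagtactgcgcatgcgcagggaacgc
Psat1, chr19:15925060-15925159, minus strand: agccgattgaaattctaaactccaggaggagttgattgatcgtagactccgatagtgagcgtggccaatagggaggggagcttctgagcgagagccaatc
The window of the inner Psat1 start site (70.0% G and C before the start, chr19:15924623-15924722) holds no match either and is not printed. A match describes letters only, and the lack of one in this window says nothing of binding by any factor.

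Library totals ran from 18292636 to 25732049 counts, and log2 levels correlated across genes at 0.991 to 0.994 within groups and 0.79 to 0.956 between them. The CD45 gene itself, Ptprc, was read at 997 ± 78.7 CPM (WT), 498 ± 21.0 (BN1), 382 ± 29.2 (MA9) and 324 ± 9.11 (ME) (SD, n = 3 libraries in each). CPM here is the usual library-size unit, with totals scaled by TMM factors. Nutm1 was at 0.882 ± 0.164 CPM in BN1, 6.27 ± 0.402 in MA9, 0.975 ± 0.555 in ME and 0.158 ± 0.137 in WT, and the labels do not say whether the fusions carry human or mouse sequence, so this checks no label. In ME replicate 3, 1.85% of counts fell on structural RNA genes, Lars2 and LOC101056014, with at most 0.0909% in any other library. The summed level of the Y-linked genes Ddx3y, Eif2s3y, Kdm5d and Uty was 149 to 165 CPM in MA9 and at most 0.629 CPM elsewhere. This difference in Y-linked genes coincides with the group. In every comparison with MA9 its part cannot be told apart from that of the fusion. The group means of Brd9 lay at 74.0 to 90.3 CPM and those of Kmt2a, the mouse MLL gene, at 112 to 159.5. Markers of several mature lineages were far higher in WT than in the leukemias. The 10 mature neutrophil markers summed to 60100 to 63000 CPM (WT), 5020 to 5230 (BN1), 572 to 609 (MA9) and 463 to 532 (ME). For the 10 erythroid markers the sums were 33800 to 43800 CPM in WT and 80.0 to 165 in the leukemias, with Slc4a1, the anion exchanger of red cells, at 0 counts in ME. In such bulk samples fewer cells of a type and less RNA per cell cannot be told apart, and the part of lineage makeup in the differences from WT was not tested.

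Phgdh, the entry enzyme of serine synthesis, was lower in every leukemia than in normal marrow, and lowest in BN1. Phgdh (chromosome 3, from 98313171 to 98339969) stood at 60.2, 65.6 and 64.6 CPM in WT, at 3.74, 3.78 and 3.41 in BN1, at 12.3, 12.2 and 12.4 in MA9 and at 13.7, 15.6 and 13.9 in ME. The 4 groups did not overlap. Against WT, Phgdh fell 17.4-fold in BN1 (log2 fold change -4.12 ± 0.09, edgeR estimate ± SE), 5.15-fold in MA9 (-2.37 ± 0.08) and 4.40-fold in ME (-2.14 ± 0.08), with edgeR adjusted p of 1.2e-24, 1.4e-20 and 1.1e-19. These 3 comparisons share the WT libraries. BN1 was lower than MA9 by 1.76 ± 0.10 (log2; edgeR adjusted p = 1.4e-14) and lower than ME by 1.98 ± 0.10 (7.4e-16). Between the MLL leukemias the difference was small, at -0.23 ± 0.09 for MA9 against ME (edgeR adjusted p = 0.039), and it missed the threshold under DESeq2 (0.055), limma-voom (0.053) and 10 other alternatives (0.052 to 0.20), including without any 1 MA9 library, without ME replicate 2 and without WT replicate 2 or 3.

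Psat1, the aminotransferase of the second step, went the other way in the MLL leukemias. Psat1 (chromosome 19, from 15905123 to 15925059) was measured at 59.1, 59.7 and 56.1 CPM in WT, 44.8, 43.0 and 47.2 in BN1, 134, 140 and 134 in MA9, and 94.2, 99.6 and 109 in ME. The groups did not overlap and ran in the order BN1, WT, ME, MA9. It rose 2.34-fold in MA9 and 1.73-fold in ME against WT and fell by 0.37 ± 0.06 (log2) in BN1, with edgeR adjusted p of 2.4e-17, 6.1e-13 and 2.4e-06. BN1 was therefore 3.03-fold below MA9 and 2.24-fold below ME (edgeR adjusted p of 1.4e-19 and 2.8e-16).

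Psph, the phosphatase of the last step, had another order again. Psph (chromosome 5, from 129765558 to 129787443) was at 9.66, 11.9 and 10.4 CPM in WT, 20.9, 20.6 and 23.1 in BN1, 15.1, 13.2 and 14.7 in MA9, and 27.0, 25.3 and 24.9 in ME. All leukemia libraries lay above all WT libraries. The rise over WT was 2.03-fold in BN1, 1.34-fold in MA9 and 2.42-fold in ME (edgeR adjusted p of 2.9e-10, 0.00047 and 2.5e-12). BN1 was below ME by 0.26 ± 0.09 (log2; edgeR adjusted p = 0.014), a call lost without BN1 replicate 1 (0.052), BN1 replicate 2 (0.065) or ME replicate 1 (0.058). Psph shares 452 exon bases with Cct6a on the opposite strand, and no source used here states whether counting used the strand, so its level is uncertain. Cct6a, a chaperonin subunit, was at 113.8 ± 6.38 CPM (WT), 255 ± 4.84 (BN1), 223 ± 12.6 (MA9) and 214 ± 18.1 (ME); its part in the Psph values was not tested.

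**Figure D1:**
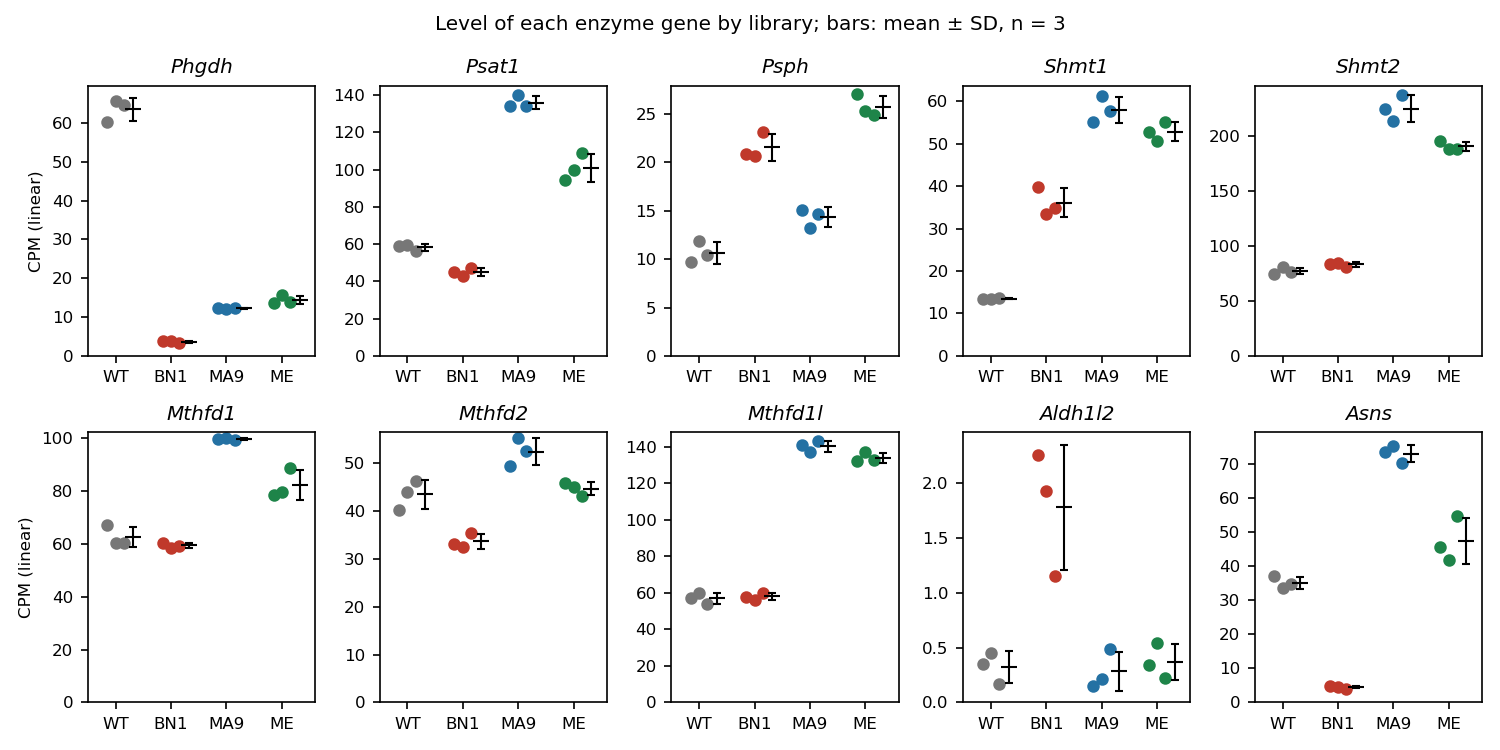
Level of each of the 10 genes in CPM (linear axis from 0) by library in WT, BN1, MA9 and ME; points are libraries and bars the mean ± SD of 3. Phgdh is highest in WT and Asns lowest in BN1, and Psat1, Shmt2 and Mthfd1l are higher in all 6 MA9 and ME libraries than in the others.

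The cytosolic enzyme Shmt1 was higher in each leukemia than in WT, whereas its mitochondrial counterpart Shmt2 was raised in the MLL leukemias and stayed near the WT level in BN1. Shmt1 (chromosome 11, from 60788897 to 60811265) stood at 13.4, 13.4 and 13.7 CPM in WT, 39.9, 33.4 and 34.8 in BN1, 55.1, 61.2 and 57.8 in MA9, and 52.7, 50.7 and 55.2 in ME. Its rise over WT was 2.67-fold in BN1, 4.30-fold in MA9 and 3.91-fold in ME (edgeR adjusted p of 1.9e-15, 1.3e-19 and 7.5e-19). MA9 and ME overlapped and their difference of 0.14 ± 0.07 (log2) did not pass the test (edgeR adjusted p = 0.11; 0.019 with library totals as the only scaling). Shmt1 shares 184 exon bases with Smcr8 on the opposite strand, a gene at 68.5 ± 0.940 CPM (WT), 186 ± 7.60 (BN1), 124 ± 0.246 (MA9) and 123 ± 4.50 (ME). Smcr8 rose over WT by 1.44 ± 0.05 in BN1, 0.86 ± 0.05 in MA9 and 0.85 ± 0.05 in ME (log2), and was higher in BN1 than in MA9 (0.58 ± 0.05) where Shmt1 was lower (-0.69 ± 0.07). The level of Shmt1 is therefore uncertain too, and the part of Smcr8 in it was not tested.

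Shmt2 (chromosome 10, from 127517123 to 127522444) was measured at 74.7, 80.6 and 76.5 CPM in WT, 83.9, 84.7 and 80.9 in BN1, 224, 213 and 237 in MA9, and 195, 188 and 188 in ME. The MA9 libraries were the highest, followed by ME, and the WT and BN1 ranges adjoined. Shmt2 rose 2.91-fold in MA9 and 2.46-fold in ME over WT (edgeR adjusted p of 4.8e-21 and 2.6e-19). In BN1 the difference from WT was 0.11 ± 0.05 on the log2 scale (edgeR adjusted p = 0.056, unadjusted 95% interval 0.0027 to 0.21). That call turned positive under 8 alternatives, among them upper-quartile scaling (edgeR adjusted p = 0.010), library totals as the only scaling (0.00023), and fits without WT replicate 2 (0.027), BN1 replicate 3 (0.035), MA9 replicate 2 (0.036), MA9 replicate 3 (0.040) or ME replicate 3 (0.041). BN1 was 2.70-fold below MA9 and 2.29-fold below ME (edgeR adjusted p of 4.2e-20 and 3.2e-18).

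Within a library the ratio of reads per kilobase of exon gives the balance of the messages of the mitochondrial and the cytosolic enzyme. The Shmt2 to Shmt1 ratio was 6.94, 7.51 and 6.99 in WT, 2.62, 3.16 and 2.90 in BN1, 5.08, 4.35 and 5.13 in MA9, and 4.62, 4.63 and 4.26 in ME. BN1 libraries had the lowest ratios and WT libraries the highest, without overlap, and MA9 and ME overlapped. The ratio carries the uncertainty of Shmt1, whose overlapping gene Smcr8 was highest in BN1 (186 ± 7.60 CPM). The part of Smcr8 in the ratio was not tested. With 3 against 3 libraries the exact two-sided permutation test cannot go below p = 0.10, which it reached in the 5 comparisons other than MA9 against ME (exact p = 0.30). Over the 18 ratio tests of 3 enzyme pairs the smallest Benjamini-Hochberg adjusted exact p was 0.138.

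Mthfd1l, which releases formate in mitochondria, was likewise higher in both MLL leukemias. Mthfd1l (chromosome 10, from 3972892 to 4167081) was at 57.0, 60.0 and 54.1 CPM in WT, 57.9, 56.2 and 60.2 in BN1, 141, 137 and 143 in MA9, and 132, 137 and 133 in ME. WT and BN1 overlapped, and MA9 and ME nearly coincided. The rise over WT was 2.46-fold in MA9 and 2.35-fold in ME (edgeR adjusted p of 6.2e-19 and 2.3e-18). BN1 differed from WT by 0.03 ± 0.05 (log2; edgeR adjusted p = 0.64, 95% interval -0.081 to 0.14; 0.15 and adjusted p = 0.012 with library totals only), and MA9 from ME by 0.07 ± 0.05 (edgeR adjusted p = 0.29, 95% interval -0.033 to 0.17; adjusted p = 0.045 with library totals only). BN1 was 2.41-fold below MA9 and 2.30-fold below ME (edgeR adjusted p of 1.5e-18 and 6.8e-18).

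Mthfd1, the cytosolic trifunctional enzyme, changed less. Mthfd1 (chromosome 12, from 76254406 to 76319820) stood at 67.1, 60.4 and 60.4 CPM in WT, 60.4, 58.4 and 59.3 in BN1, 99.6, 100 and 99.4 in MA9, and 78.3, 79.5 and 88.8 in ME. MA9 was the highest group, ME came next, and WT and BN1 overlapped. Mthfd1 rose 1.59-fold in MA9 and 1.31-fold in ME over WT (edgeR adjusted p of 1.6e-11 and 6.3e-07). In BN1 it differed from WT by -0.08 ± 0.06 (log2; edgeR adjusted p = 0.22), which passed the threshold with RLE scaling and with a minimum of 5 CPM (both 0.044). The Mthfd1l to Mthfd1 ratio per kilobase was 0.850 to 0.995 (WT), 0.960 to 1.02 (BN1), 1.36 to 1.44 (MA9) and 1.5 to 1.72 (ME). It was thus higher in both MLL leukemias than in WT and BN1 without overlap, at the smallest exact permutation p of 0.10 that the design allows.

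Mthfd2, the mitochondrial dehydrogenase, had the smallest ratio of highest to lowest group mean among the 10 genes. Mthfd2 (chromosome 6, from 83305704 to 83326011) was measured at 40.3, 44.0 and 46.3 CPM in WT, 33.1, 32.6 and 35.5 in BN1, 49.5, 55.2 and 52.6 in MA9, and 45.9, 45.0 and 43.2 in ME. BN1 was the lowest group, MA9 the highest, and WT and ME overlapped. Mthfd2 rose 1.21-fold in MA9 over WT and fell by 0.37 ± 0.07 (log2) in BN1 (edgeR adjusted p of 0.00048 and 1.7e-05), and ME against WT gave 0.04 ± 0.07 (0.59; 0.16 and adjusted p = 0.037 with library totals only). The Mthfd2 to Mthfd1 ratio per kilobase, 0.765 to 0.975 in WT, lay at 0.698 to 0.763 (BN1), 0.634 to 0.700 (MA9) and 0.619 to 0.747 (ME). Each leukemia was below WT without overlap (exact permutation p = 0.10), and the leukemias overlapped one another.

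**Figure D2:**
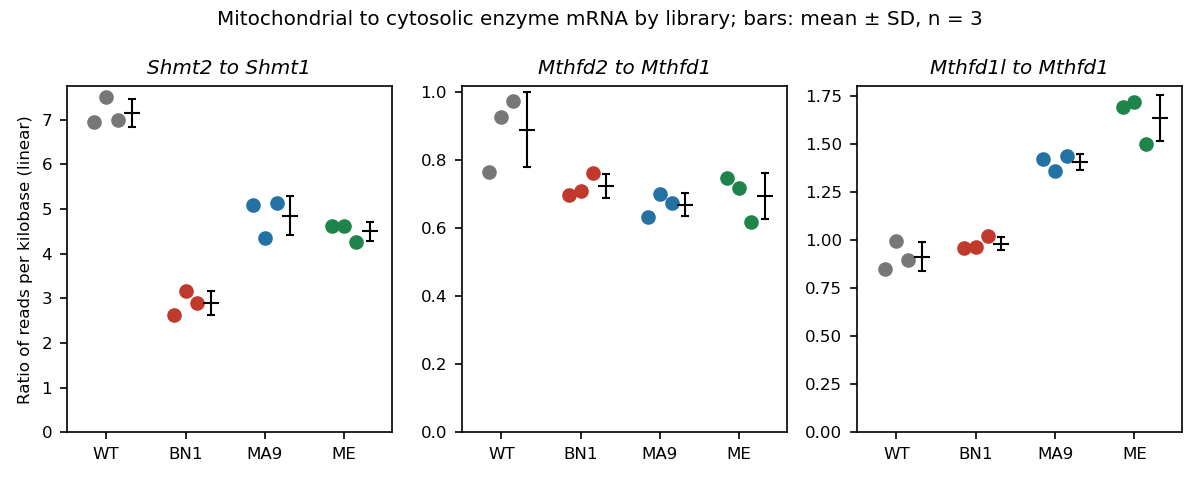
Ratio of reads per kilobase of exon of a mitochondrial to a cytosolic enzyme in each library (linear axes from 0); points are libraries and bars the mean ± SD of 3. The Shmt2 to Shmt1 ratio is lowest in BN1 (2.62 to 3.16), and the Mthfd1l to Mthfd1 ratio is higher in MA9 and ME than in WT and BN1. The Shmt1 level is uncertain because of its overlap with Smcr8.

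Aldh1l2, the mitochondrial folate oxidase, was near the limit of detection outside BN1. Aldh1l2 (chromosome 10, from 83487447 to 83534146) had 55, 43 and 30 counts in BN1, 7, 8 and 3 in WT, 3, 5 and 10 in MA9, and 7, 12 and 4 in ME. In CPM these were 2.26, 1.93 and 1.15 in BN1 against 0.151 to 0.544 in all other libraries, without overlap. With the BN1 libraries set aside Aldh1l2 did not pass the filter on low counts, so it had to be higher in BN1 to be tested at all. Its fitted log2 differences, 2.44 ± 0.44 over WT, 2.62 ± 0.44 over MA9 and 2.22 ± 0.42 over ME, are therefore given as a description. Aldh1l2 shares 1056 exon bases with D10Wsu102e on the opposite strand, and that gene was at 49.4 ± 0.361 CPM in BN1, 52.8 ± 2.86 in MA9, 49.4 ± 1.0 in ME and 32.9 ± 1.34 in WT. D10Wsu102e was higher in BN1 than in WT (0.59 ± 0.06, log2; edgeR adjusted p = 1.2e-09) and did not pass the test between BN1 and MA9 (-0.10 ± 0.06) or BN1 and ME (0.00042 ± 0.059). The level of Aldh1l2 is uncertain for the same reason as that of Psph, and the part of D10Wsu102e in it was not tested.

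Asns, which makes asparagine, separated the leukemias most. Asns (chromosome 6, from 7675165 to 7693209) was at 4.69, 4.54 and 4.06 CPM in BN1, 37.0, 33.6 and 34.8 in WT, 45.5, 41.8 and 54.8 in ME, and 73.6, 75.4 and 70.3 in MA9. The 4 groups did not overlap. BN1 was 16.5-fold below MA9 (-4.05 ± 0.10, log2), 10.7-fold below ME (-3.42 ± 0.10) and 7.95-fold below WT (-2.99 ± 0.10), with edgeR adjusted p of 2.6e-23, 2.7e-21 and 3.1e-20. In rank order of log2 fold change Asns lay at the 3.31 percentile of all tested genes in BN1 against MA9 and at the 3.42 percentile in BN1 against ME. Asns rose over WT 2.08-fold in MA9 and 1.34-fold in ME (edgeR adjusted p of 6.9e-13 and 2.0e-05), and MA9 exceeded ME by 0.63 ± 0.07 (log2; 6.4e-08).

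Counted over the 10 genes, the MLL leukemias stood above WT and above BN1, while BN1 against WT was mixed. The genes were chosen with earlier results of these data known, so the shares of all genes given beside these counts make no test of the set. In MA9 against WT 8 of 10 rose and 1 fell, where 39.3% of all tested genes rose and 40.8% fell. In ME against WT 7 rose and 1 fell, against 39% and 40.2% of all genes. In BN1 against WT 3 rose and 4 fell, near the background of 38.4% and 40.8%. BN1 was lower than MA9 for 8 genes and higher for 2 (34.9% and 32.8% of all genes), and lower than ME for 9 and higher for 1 (33% and 31.8%). Phgdh, Psat1, Shmt2, Mthfd1l and Asns were at least 2-fold lower in BN1 than in MA9 and than in ME, 5 genes of 10, where 12.8% and 10.8% of all genes were. MA9 was higher than ME for 5 genes and lower for Phgdh and Psph (20.2% and 20.4% of all genes). These counts include Aldh1l2: without it 2 of 9 rose and 4 fell in BN1 against WT, 1 was higher and 8 lower in BN1 than in MA9, and none was higher and 9 lower than in ME.

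The median log2 fold change of the 10 genes was 0.86 in MA9 and 0.61 in ME against WT, and -0.025 in BN1 against WT, where the medians of all tested genes were -0.014, -0.0098 and -0.012. For BN1 against MA9 and ME the medians of the 10 genes were -1.01 and -0.86, against -0.0069 and -0.0072 for all genes. Without Aldh1l2 the medians of the other 9 were 1.06 (MA9), 0.79 (ME) and -0.078 (BN1) against WT, and -1.27 and -1.16 for BN1 against MA9 and ME. With library totals as the only scaling the median of all genes moved by 0.12 in BN1, 0.17 in MA9 and 0.11 in ME against WT, and calls higher in MA9 than in ME went from 49.7% to 60.8% of all calls in that comparison. Groups did not overlap for 10 of 10 genes in BN1 against MA9 and against ME, as for 70.1% and 66.9% of all genes, and for 7 of 10 in MA9 against ME (48.6%). The 10 include Aldh1l2, which had to be higher in BN1 to be tested. In BN1 against MA9 and ME the other 9 did not overlap either. Other lists also differed between BN1 and the MLL leukemias. All 14 proliferation genes were lower in BN1 than in MA9 and than in ME, and their summed level was 2500 to 2560 CPM in BN1, 4290 to 4360 in MA9, 3830 to 4160 in ME and 4330 to 4550 in WT. Monocyte markers summed to 6610 to 6970 CPM in BN1, 2740 to 2990 in MA9, 3470 to 3810 in ME and 2440 to 2800 in WT. Of these 7 genes 5 were higher and 2 lower in BN1 than in MA9, and 6 higher and 1 lower than in ME. All 10 mature neutrophil markers, whose sums are given above, were higher in BN1 than in MA9 (median 3.11, log2) and than in ME (4.92). The 7 early myeloid markers summed to 21400 to 22000 CPM in BN1, 11100 to 11600 in MA9, 16900 to 17800 in ME and 1590 to 1700 in WT. They did not move together: 5 were higher and 2 lower in BN1 than in MA9, and 4 higher and 3 lower than in ME. Cd34 was at 0.602 ± 0.220 CPM in BN1, 46.1 ± 2.79 in MA9 and 3.42 ± 0.985 in ME. Of all tested genes 32.8% were higher and 34.9% lower in BN1 than in MA9, and 31.8% and 33% than in ME. The part of any of these in the enzyme values was not tested.

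**Figure D3:**
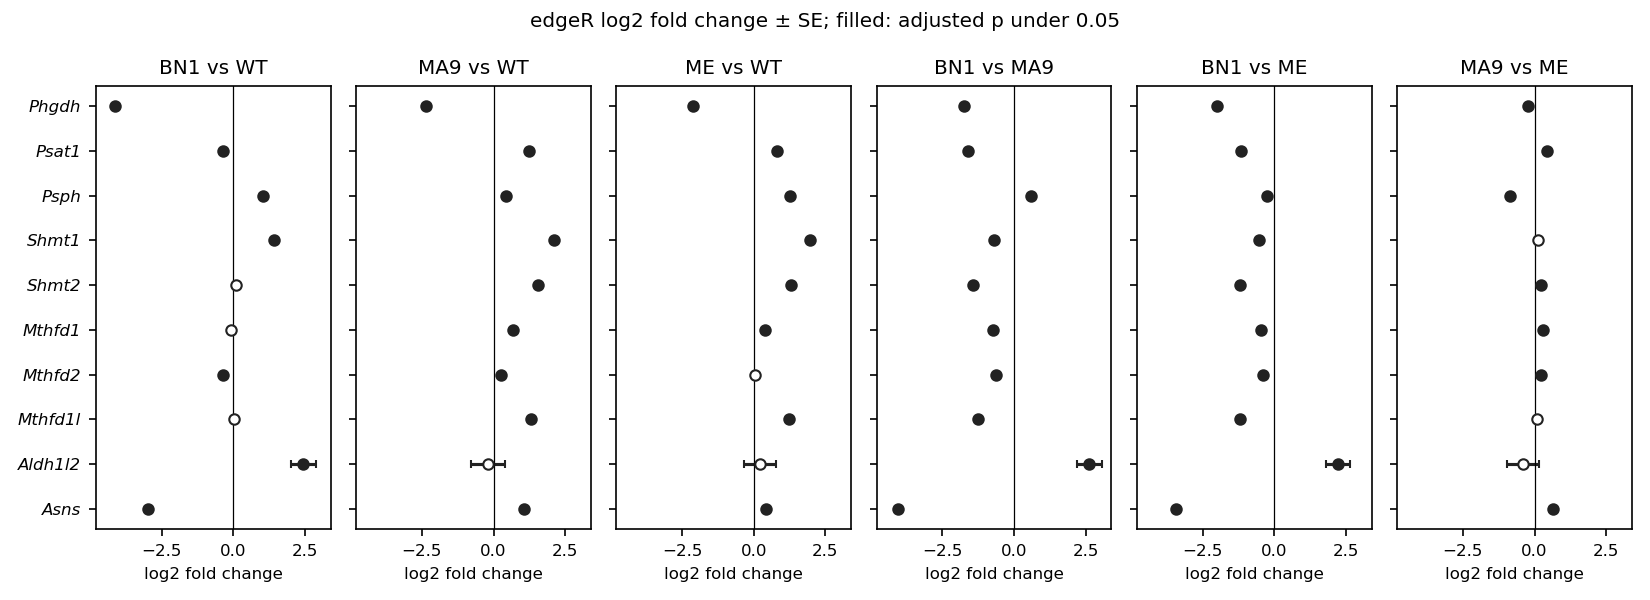
Log2 fold change of the 10 genes in the 6 comparisons (first group over second), with edgeR estimates and SE bars; filled points have an adjusted p under 0.05. Of the 10 genes, 8 lie left of 0 in BN1 vs MA9 and 9 in BN1 vs ME, with Asns farthest left, and Aldh1l2 lies right of 0 in both. Aldh1l2 had to be higher in BN1 to be tested, so its points are a description only.

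Per kilobase of exon, Shmt2 was the most abundant of the 10 messages in each leukemia, at 26.75 ± 0.634 CPM per kilobase in BN1, 72.3 ± 3.94 in MA9 and 61.2 ± 1.26 in ME. In WT Shmt2 stood at 24.85 ± 0.967 beside Phgdh at 25.5 ± 1.16, a difference within the spread. Phgdh was at 1.47 ± 0.0822 CPM per kilobase in BN1, below all other members but Aldh1l2 and close to Asns at 1.62 ± 0.121. In MA9 the levels of Psat1 (32.04 ± 0.811), Mthfd1l (31.65 ± 0.780) and Asns (26.7 ± 0.958) came next after Shmt2. The message of the first enzyme of serine synthesis was thus below that of the second in every leukemia group. In WT it was above, with Psat1 at 13.7 ± 0.452 CPM per kilobase. Lengths count all annotated exons of a gene, and which isoforms were expressed was not tested.

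Likeness of pattern was measured as the root mean square difference of log2 CPM, each gene centred on its own mean over the 12 libraries, among 10025 other tested genes of at least 5 CPM. Shmt2 and Mthfd1l lay within each other's 3 nearest genes, at 0.101, and were the closest pair among the 10 enzymes. Nearest to Shmt2 was Lgals1, which encodes galectin-1 (0.0845), and nearest to Mthfd1l was Rhob, a small GTPase (0.0836). For Asns the nearest genes were Rapgef4 (0.275), Plcb4 (0.387) and the amino acid transporter Slc7a8 (0.401), which stood at 13 CPM (WT), 0.909 (BN1), 14.7 (MA9) and 14.1 (ME). Phgdh was nearest to Lpcat4 (0.22), Il18rap (0.239) and Cyp4f18 (0.24), and Psat1 to Gnptab (0.12), Ung (0.124), the uracil DNA glycosylase, and Chn2 (0.138). These are descriptions over libraries that share 4 group means.

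Of 15 other listed genes of the folate cycle 14 were tested, and 7 rose and 6 fell in BN1, 9 and 3 in MA9, and 8 and 3 in ME against WT. Over all tested genes 38.4%, 39.3% and 39% rose and 40.8%, 40.8% and 40.2% fell, so the BN1 counts were near the background. The median log2 fold changes of the folate list were 0.14, 0.39 and 0.39. The proton-coupled folate transporter Slc46a1 rose in each leukemia, from 0.697 ± 0.165 CPM (WT) to 10.6 ± 0.901 (BN1), 9.42 ± 0.946 (MA9) and 10.5 ± 1.24 (ME). The folate receptor Folr1 was at 5.57 ± 0.856 CPM in BN1 and at 0.232 ± 0.250 in WT, 0.883 ± 0.262 in MA9 and 0.636 ± 0.278 in ME, higher in BN1 than in each of them (2.64 ± 0.30 on the log2 scale over MA9, edgeR adjusted p = 1.9e-08). Aldh1l1, the cytosolic counterpart of Aldh1l2, was higher in both MLL leukemias, at 0.597 ± 0.106 CPM in BN1, 8.55 ± 1.12 in MA9, 8.13 ± 1.51 in ME and 1.05 ± 0.0537 in WT. BN1 was lower than MA9 in Aldh1l1 by 3.84 ± 0.21 and than ME by 3.77 ± 0.22 (log2; edgeR adjusted p of 3.5e-15 and 7.1e-15). The reduced folate carrier Slc19a1 was at 11.5 ± 0.818 (WT), 23.1 ± 1.29 (BN1), 40.1 ± 2.47 (MA9) and 40.5 ± 3.87 (ME) CPM. Fpgs, which retains folates in the cell by adding glutamates, was at 18.1 ± 0.403 (WT), 23.0 ± 2.70 (BN1), 43.1 ± 3.56 (MA9) and 23.5 ± 1.92 (ME) CPM.

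Most listed genes of purine synthesis, a main user of folate-borne carbon, were higher in each leukemia than in WT. Of 13 genes 10 rose in BN1 and none fell, 11 rose and 1 fell in MA9, and 12 rose and 1 fell in ME. Over all tested genes 38.4%, 39.3% and 39% rose and 40.8%, 40.8% and 40.2% fell. The medians of the purine genes were 0.47, 0.98 and 0.85 (log2). Atic, which adds the last folate-borne carbon of the purine ring, stood at 78.5 ± 1.69 CPM (WT), 131 ± 2.02 (BN1), 197 ± 3.04 (MA9) and 217 ± 11.7 (ME). BN1 was lower than MA9 for 11 of the 13 genes and higher for 2 (34.9% and 32.8% of all genes). It was lower than ME for 8 and higher for 3 (33% and 31.8%). The methionine cycle list had 5 of 9 tested genes higher and 2 lower in BN1, 5 and 2 in MA9, and 7 and 1 in ME against WT, with medians of 0.42, 0.25 and 0.46. Beside the shares of all genes against WT given above, its counts of lower genes were under the background. Ahcy, which clears S-adenosylhomocysteine, was at 73.8 ± 1.20 CPM (WT), 105.5 ± 2.13 (BN1), 171 ± 1.82 (MA9) and 161 ± 10.9 (ME). In the glycine cleavage system, which breaks glycine down in mitochondria, Gcsh and Dld rose in each leukemia, Gcsh from 8.59 ± 0.752 CPM (WT) to 26.5 ± 3.01 (BN1), 29.8 ± 3.07 (MA9) and 24.4 ± 3.37 (ME). Amt of the same system went the other way, from 4.336 ± 0.679 CPM (WT) to 1.802 ± 0.443 (MA9) and 2.195 ± 0.659 (ME). In BN1 Amt was at 3.235 ± 0.0937 CPM and was not called. Gldc, also of this system, had at most 3 counts in a group and was not tested.

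Of 24 tested genes of the amino acid response 8 rose and 16 fell in BN1, 10 and 12 in MA9, and 9 and 11 in ME against WT. Their median log2 fold changes were -0.70, -0.17 and 0.055. Against WT 38.4%, 39.3% and 39% of all tested genes rose and 40.8%, 40.8% and 40.2% fell. Of the same 24 genes 14 were lower in BN1 than in MA9 and 7 higher. Compared with ME 11 were lower in BN1 and 6 higher, and the medians of these 2 comparisons were -0.34 and -0.16. Over all tested genes 34.9% were lower and 32.8% higher in BN1 than in MA9, and 33% and 31.8% than in ME, so the counts of higher genes were near or under the background. The regulator Atf4, named here outside the naming rule, was at 164 ± 4.39 CPM in BN1, 199 ± 16.1 in WT, 234.5 ± 11.5 in MA9 and 203 ± 6.61 in ME, lower in BN1 than in MA9 by 0.51 ± 0.05 and than in ME by 0.31 ± 0.05 (log2; edgeR adjusted p of 1.3e-09 and 9.9e-06). The neutral amino acid transporter Slc7a5 was at 45.5 ± 0.830 CPM in BN1, 95.9 ± 3.23 in WT and 121 ± 7.01 in MA9. Slc7a5 was also lower in BN1 than in ME (-1.17 ± 0.05, log2). The proline synthesis enzyme Pycr1 was at 1.52 ± 0.369 CPM in BN1, 2.456 ± 0.757 in WT, 6.29 ± 0.293 in MA9 and 3.285 ± 0.573 in ME. On the other side Nupr1 was higher in BN1 than in MA9 (2.0 ± 0.16, log2), as was Ppp1r15a, a phosphatase subunit that reverses the stress signal (0.91 ± 0.10).

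Aminoacyl-tRNA synthetases, which charge tRNAs with amino acids and of which many are known Atf4 targets, were higher in MA9 and ME than in WT. All 20 genes of the cytosolic enzymes rose in MA9 over WT, 17 rose and 1 fell in ME, and 13 rose and 3 fell in BN1, with medians of 0.70, 0.63 and 0.32 (log2). Over all tested genes 39.3% (MA9), 39% (ME) and 38.4% (BN1) rose, and 40.8%, 40.2% and 40.8% fell. BN1 was lower than MA9 for 17 and higher for 1, Rars, and lower than ME for 16 and higher for 1, again Rars, with medians of -0.35 in both. The asparagine enzyme Nars stood at 111 ± 1.10 CPM (WT), 116 ± 2.77 (BN1), 232.5 ± 2.50 (MA9) and 208 ± 4.86 (ME), lower in BN1 than in MA9 by 1.0 ± 0.04 (log2; edgeR adjusted p = 8.9e-18). Of 16 tested transporters and neighbouring enzymes 8 were lower in BN1 than in MA9 and 5 higher (median -0.46, log2), and 10 were lower than in ME and 4 higher (-0.61). Of all tested genes 34.9% were lower and 32.8% higher in BN1 than in MA9, and 33% and 31.8% than in ME. The counts of higher genes among these 16 were thus near or under the background. Among them the neutral amino acid transporter Slc38a1 was at 31.8 ± 3.18 CPM in BN1, 141 ± 6.17 in WT, 175 ± 3.51 in MA9 and 144.5 ± 3.65 in ME. Got1, which links aspartate and oxaloacetate in the cytosol, was at 19.6 ± 1.38 CPM in BN1, 26.9 ± 3.03 in WT, 48.6 ± 4.64 in MA9 and 36.4 ± 3.04 in ME. Sfxn1, a mitochondrial serine carrier, was at 53.0 ± 0.655 CPM (WT), 78.9 ± 0.845 (BN1), 134 ± 3.72 (MA9) and 107.5 ± 4.48 (ME).

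**Figure D4:**
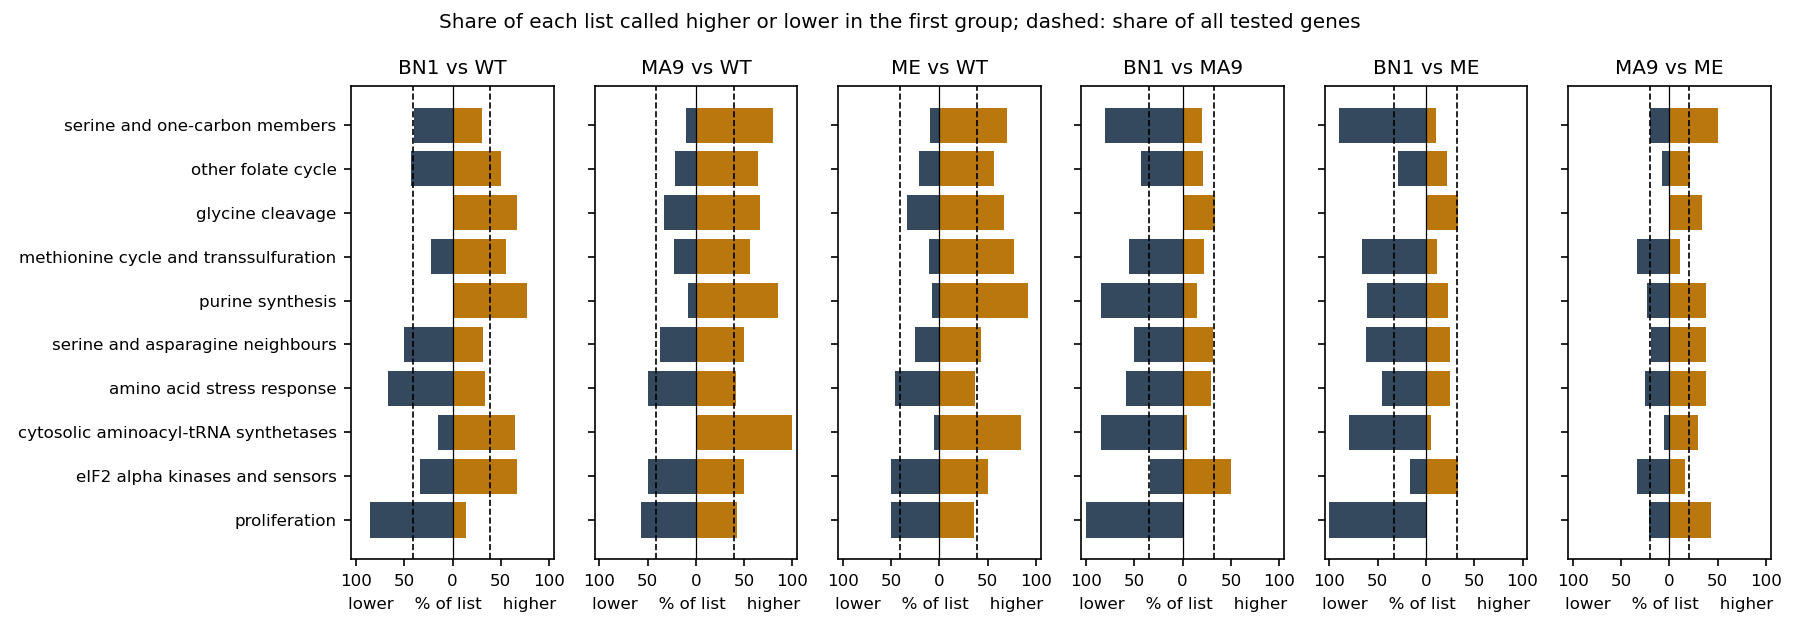
Percent of the tested genes of each list called higher (right) or lower (left) in the first group of each comparison at an edgeR adjusted p under 0.05; dashed lines give the same shares over all 15334 tested genes. In BN1 vs MA9 the members, purine synthesis, tRNA synthetase and proliferation lists reach furthest to the left, and no set test was made.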

How the data were processed

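The authors deposited raw read counts per gene symbol. The submitters' processing notes list HISAT2, featureCounts, DESeq2 and mm10, without roles; versions, annotation and strand setting are not stated there. Per the labels, sorted cells gave stranded polyadenylated libraries. Counts of all 12 libraries were fitted in edgeR 4.0.16 (filterByExpr, TMM factors of 0.928 to 1.051, quasi-likelihood with robust dispersion, group means only), with limma 3.58.1, DESeq2 1.42.0 and R 4.3.3 as alternatives or base. The 6 pairwise comparisons were adjusted by Benjamini-Hochberg over 15334 genes and called under 0.05. The members and lists were chosen with earlier results of these data known. All members were named, as were up to 2 called genes per direction, list and comparison without overlap whose higher group averaged 5 CPM or more, and the 3 genes most like each member; Atf4, Ptprc and 3 genes overlapping members were added after their values were seen. Exon lengths came from GENCODE M21, positions and promoters from RefSeq GRCm38.p6. On simulated data for BN1 against WT with 15334 genes, 86% of 2-fold and 38% of 1.25-fold changes were recovered. The simulation changed 50 genes at each fold and gave all genes the same dispersion, whereas the real comparison called 12146 genes. Its recovery is therefore not that of the real test. Within groups every pair of libraries differed beyond sampling noise (lowest mean chi-square 2.005). The pairs with ME replicate 3 differed most, at 32.31 with ME replicate 1 and 35.22 with ME replicate 2. The highest value of any other pair was 7.513.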

Additional observations from a re-analysis of the deposited data

How the results depend on the processing

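Alternatives were DESeq2, limma-voom, 3 other scalings, 2 other filters, fits of only the compared groups, a replicate block, a threshold of 0.01, removal of structural RNA genes, and each library left out. Over 1311 repeated values of single members, 1282 kept their side of the threshold, 15 lost the call, 14 gained it and no called value changed sign. Counts of called members ranged from 6 to 9 in BN1, stayed at 9 in MA9 and ranged from 8 to 9 in ME against WT; they were 9 to 10 in BN1 against MA9 and ME, and 6 to 8 in MA9 against ME. With a minimum of 5 CPM in 3 libraries Aldh1l2 was not tested. The count without Aldh1l2 was added after seeing the data, and it gave the 6 members in BN1 against WT. With a replicate block the members called were 7, 9, 8, 10, 10 and 7 (BN1, MA9 and ME against WT, BN1 against MA9 and ME, and MA9 against ME), and the genes called in BN1 against MA9 were 10195 in place of 10375. Replicate numbers are a number only: deviations of same-numbered libraries correlated at -0.0806 to 0.0625, and 3 of 12 libraries correlated best with their own number. Depth limits Aldh1l2, with 3 to 55 counts in a library.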

Other observations

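The list upstream of Atf4 held 6 genes: Eif2s1 of the initiation factor eIF2, the kinases Eif2ak1 to Eif2ak4, and Gcn1l1, listed as a sensor. Of these 4 rose and 2 fell in BN1, and 3 rose and 3 fell in MA9 and in ME, against WT. Over all tested genes 38.4% rose and 40.8% fell in BN1, 39.3% and 40.8% in MA9, and 39% and 40.2% in ME, so 3 and 3 of 6 are about the background. Eif2ak1, the heme-regulated kinase, was at 186 ± 11.4 CPM (WT), 131 ± 4.18 (BN1), 79.2 ± 2.38 (MA9) and 85.5 ± 2.86 (ME), and Eif2ak4, the amino acid sensor GCN2, at 25.6 ± 1.40, 37.0 ± 1.68, 43.8 ± 1.91 and 39.6 ± 0.779 CPM. The 10 erythroid markers summed to 33800 to 43800 CPM in WT and at most 165 in any leukemia, and their part in the Eif2ak1 values was not tested.

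The isoenzymes of guanine nucleotide synthesis went apart. Impdh2 was at 97.6 ± 1.75 CPM (WT), 133 ± 6.43 (BN1), 212 ± 2.01 (MA9) and 207 ± 4.49 (ME), while Impdh1 was at 42.0 ± 1.55 (WT), 43.0 ± 0.395 (BN1), 11.4 ± 0.585 (MA9) and 3.03 ± 0.307 (ME). BN1 was 14.2-fold above ME in Impdh1 (3.83 ± 0.10, log2; edgeR adjusted p = 5e-23). The glycine transporter Slc6a9 fell from 69.1 ± 9.38 CPM (WT) to 1.21 ± 0.124 (BN1), 0.348 ± 0.161 (MA9) and 0.134 ± 0.146 (ME).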
